A study of Mus musculus with 6 samples.

Results

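The genes described here are 9 genes of retinoic acid synthesis, binding, reception and breakdown, chosen by name and looked up in the mouse annotation GENCODE vM21. They are the enzymes Aldh1a1, Aldh1a2 and Aldh1a3, the receptors Rara, Rarb and Rarg, the binding proteins Crabp1 and Crabp2 and the degrading enzyme Cyp26b1. All 9 are among the 50686 genes of the count files, and 6 of them had enough reads for the test between the groups. RNASeq was available for 2 wild-type NSC cultures, which are neural stem cells, and for 2 cultures labelled NSC Bmi1Over. The latter carry STOPFloxBmi1;NestinCre, a Bmi1 transgene freed by a Cre that the Nestin promoter drives in neural progenitors. In addition, 1 H3K27me3 ChIPSeq library of each kind was available, so that differences in the mark have no replicate error. The primary cultures were prepared from the subventricular zone of E16.5 mouse embryos and grown with EGF, FGF and B27. B27 is sold with and without vitamin A, the source of retinoic acid, and the version used is not given in the sources read here, nor is it given whether embryos were pooled. No mGIC library was analysed here.

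Retinoic acid is made from vitamin A in 2 oxidations, of which the second, from retinaldehyde to retinoic acid, is catalysed by the Aldh1a enzymes. In the cell it is carried by the Crabp proteins, binds receptors of the Rar family that sit on DNA together with an Rxr partner, and is broken down by enzymes of the Cyp26 family. In the developing forebrain it is known as a signal for neuronal differentiation and regional identity, and several genes of the pathway are textbook targets of Polycomb proteins, whose complex PRC2 deposits H3K27me3.

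Reads counted on genes ranged from 18112100 to 61353076 per RNASeq library. Values are given as CPM, read counts scaled to library size with TMM factors, and levels of different genes are compared as RPKM, the same value per kb of merged exons. Bmi1 itself was at 133 and 124 CPM in NSC and at 119 and 113 CPM in the libraries labelled NSC Bmi1Over, so reads on the mouse gene do not separate the labels in the labelled direction (log2 fold change −0.15, standard error 0.12, adjusted p = 0.463 from edgeR with Benjamini-Hochberg adjustment). The counts do not tell whether transcripts of the transgene are counted on this gene. Directions given below rest on the labels. The 9 neural stem cell markers summed to between 5949 and 6650 CPM and 0 of them were called. Within this sum, Sox2, Pax6, Fabp7, Vim, Hes1 and Hes5 were lower without overlap in the libraries labelled NSC Bmi1Over (30.0% of all genes). Slc1a3 was higher without overlap (29.0% of all genes), at 1839 and 2228 CPM in NSC against 2533 and 3063 CPM. Nes and Prom1 overlapped between the groups. Oligodendrocyte lineage markers summed to 837 to 1015 CPM, of which Olig2 made up 825 to 1007, and pericyte markers to 197 to 425 CPM, nearly all from Cspg4. Neuron markers summed to 44.6 and 61.7 CPM in NSC and 89.4 and 133 CPM in the other libraries, and astrocyte markers to 140 and 111 against 84.6 and 65.0 CPM. Each of these sums moved with 1 gene, as the other neuron markers (Dcx, Tubb3 and Rbfox3) and the other astrocyte markers (Gfap, Aqp4 and S100b) overlapped between the groups and were not called. Meningeal and mesenchymal markers summed to 11.7 to 13.3 CPM, those of microglia and endothelium to at most 3.17 CPM, and both erythroid markers were at 0. The single genes, which passed the test, were Syt1 of the neuron list, at 9.13 and 27.2 CPM in NSC and 66.5 and 95.8 CPM in the other libraries, and Aldh1l1 of the astrocyte list, at 122 and 94.2 against 66.0 and 53.3 CPM. Unmapped reads made up 11.2% and 13.7% of the NSC libraries, against 16.2% and 17.6% of the others. The part of these differences in the results below was not tested.

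None of the 6 tested retinoic acid genes passed the test between the libraries labelled NSC Bmi1Over and NSC, edgeR's quasi-likelihood test with a Benjamini-Hochberg adjusted p under 0.05. Of all 15521 genes tested 2.15% did, with 2.03% higher and 0.122% lower. At an unadjusted p under 0.05 there was 1 of the 6, Rara, against 24.2% of all genes. DESeq2 gave Cyp26b1 no adjusted p and called 0 of the other 5, against 10.8% of the genes with an adjusted p, and 2 of the 6 had an unadjusted p under 0.05, against 19.8% of all genes. The CPM of both groups did not overlap for 3 of the 6, against 59.0% of all genes. Aldh1a1 and Cyp26b1 were the 2 with both libraries labelled NSC Bmi1Over above both of NSC (29.0% of all genes), and Rarb the 1 with both below (30.0%). The log2 fold change was positive for 3 of the 6, against 48.6% of all genes. The median log2 fold change was −0.06 over the 6 genes and −0.01 over all genes. With 2 cultures a group, an exact permutation test of 1 gene cannot give a two-sided p below 0.333.

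**Figure D1:**
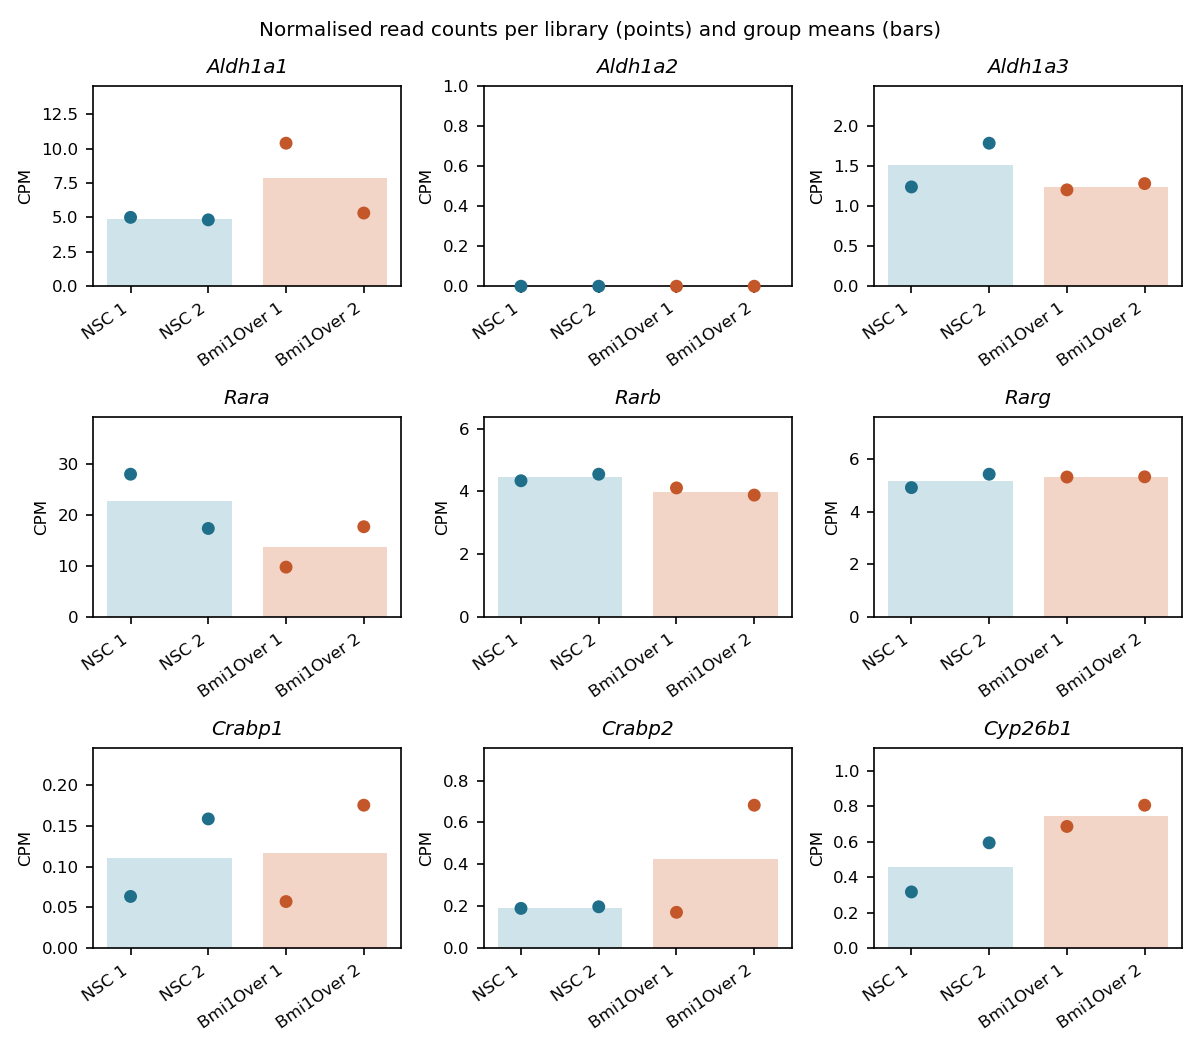
Normalised read count (CPM, vertical axes starting at 0, a different scale for each gene) of the 9 retinoic acid genes in each of the 4 RNASeq libraries. Points are single libraries and bars are means of the 2 libraries of a group. Aldh1a2 is at 0 in every library, Rara varies from 9.83 to 28.0 CPM, and Aldh1a1 stands at 10.4 CPM in NSC Bmi1Over replicate 1 alone.

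The 3 synthesis enzymes were expressed very differently. Aldh1a1 (ENSMUSG00000053279, chromosome 19 from 20492715 to 20643465) makes retinoic acid in the dorsal retina and in midbrain dopamine neurons. It was counted at 5.01 and 4.83 CPM in NSC and at 10.4 and 5.32 CPM in the libraries labelled NSC Bmi1Over. Replicate 1 of the latter was thus 1.95-fold to 2.15-fold above the other 3 libraries, which lay close together. The means were 4.92 ± 0.128 CPM (SD, n = 2) and 7.86 ± 3.59 CPM (SD, n = 2), with a log2 fold change of 0.64 (standard error 0.31, adjusted p = 0.247 from edgeR). The difference rested on 1 library, since it was 0.11 without NSC Bmi1Over replicate 1 and 1.08 without replicate 2 (adjusted p = 0.0514 from edgeR). The neighbouring mouse paralogue Aldh1a7, with a closely similar sequence, was counted at 0.787 to 1.01 CPM and did not share this pattern. Reads mapped to more than 1 place are left out of these counts.

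Aldh1a2 (ENSMUSG00000013584, chromosome 9 from 71215789 to 71296243), known as the main retinoic acid enzyme of the early embryo and of the meninges, had 0 reads in each of the 4 libraries. A count of 0 allows up to 0.0951 and 0.119 CPM in the NSC libraries and up to 0.171 and 0.0525 CPM in those labelled NSC Bmi1Over, for counting error only. Of the meningeal and mesenchymal markers, Foxc1 was counted at 10.7 to 11.7 CPM, the matrix gene Col1a1 at 0.525 to 0.989 CPM and Foxd1 at up to 0.628 CPM, and Col1a2, Dcn and Lum reached at most 0.286, 0.0317 and 0.0571 CPM. Aldh1a3 (ENSMUSG00000015134, chromosome 7 from 66390890 to 66427517), an enzyme of the ventral retina and the olfactory and striatal region, was low but counted in every library. Its values were 1.24 and 1.78 CPM in NSC and 1.20 and 1.28 CPM in the libraries labelled NSC Bmi1Over. The groups overlapped, with a log2 fold change of −0.26 (standard error 0.32, adjusted p = 0.626 from edgeR), and without NSC replicate 2 this was 0.0066.

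Among the receptors, Rara was the highest and the least steady. Rara (ENSMUSG00000037992, chromosome 11 from 98927818 to 98974942) encodes the broadly expressed receptor alpha. It was counted at 28.0 and 17.4 CPM in NSC and at 9.83 and 17.7 CPM in the libraries labelled NSC Bmi1Over. The highest value was that of NSC replicate 1 and the lowest that of NSC Bmi1Over replicate 1, and the other two libraries had nearly the same value, so that the groups overlapped. The libraries of 1 group differed 1.61-fold in NSC and 1.81-fold in the other group. The means were 22.7 ± 7.52 and 13.8 ± 5.60 CPM (SD, n = 2 each), with a log2 fold change of −0.69 (standard error 0.29, adjusted p = 0.194 from edgeR). Without NSC replicate 2 the change was −1.01, in a fit with 1 NSC library, which assumes that this library varies like the others. Without NSC replicate 1 the change was −0.32, without NSC Bmi1Over replicate 1 it was −0.37 and without NSC Bmi1Over replicate 2 it was −1.21. When no filter on low counts was applied, the change was −0.71 and passed (adjusted p = 0.00115 from edgeR). In that fit 2356 of 28541 genes passed, against 2.15% of genes in the reported fit.

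Rarb and Rarg varied least of the detected genes. Rarb (ENSMUSG00000017491, chromosome 14 from 16430839 to 16819156, minus strand) encodes receptor beta, which is itself induced by retinoic acid and serves as a reporter of the signal. It was counted at 4.34 and 4.55 CPM in NSC and at 4.11 and 3.88 CPM in the libraries labelled NSC Bmi1Over. Both of the latter lay below both NSC libraries, though the counting intervals overlapped, with a log2 fold change of −0.16 (standard error 0.22, adjusted p = 0.682 from edgeR). In GENCODE, 34.1% of the exon bases of Rarb overlap those of Top2b on the other strand, and reads in such bases are ambiguous in the unstranded counts used here. The strand columns together gave 138, 115, 72 and 223 reads for Rarb against 137, 115, 72 and 222 in the unstranded column. Rarg (ENSMUSG00000001288, chromosome 15 from 102234938 to 102257517), receptor gamma, known from skin and cartilage, was counted at 4.91 and 5.42 CPM in NSC and at 5.31 and 5.32 CPM in the others. The groups overlapped, with a log2 fold change of 0.04 (standard error 0.21, adjusted p = 0.912 from edgeR), whose sign turned with library size scaling (−0.11).

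Retinoic acid receptors bind a direct repeat of a 6-base half-site, and the repeat spaced by 5 bases (DR5) is the classical element of Rarb. The promoter of Rarb is shown because it was the only one of 12 promoters, of the 7 listed genes with an entry in the RefSeq table, that held such a repeat. The half-sites searched on both strands were AGGTCA, the consensus, or GGGTCA, or with TT at the centre AGTTCA, or likewise GGTTCA, spaced by 5, 2 or 1 bases. The window runs from 250 bases before to 50 bases after a RefSeq start (GRCm38.p6, chr14:16575427-16575726, minus strand, 5′ to 3′), and capitals mark the repeat, which is on the strand shown.
Rarb: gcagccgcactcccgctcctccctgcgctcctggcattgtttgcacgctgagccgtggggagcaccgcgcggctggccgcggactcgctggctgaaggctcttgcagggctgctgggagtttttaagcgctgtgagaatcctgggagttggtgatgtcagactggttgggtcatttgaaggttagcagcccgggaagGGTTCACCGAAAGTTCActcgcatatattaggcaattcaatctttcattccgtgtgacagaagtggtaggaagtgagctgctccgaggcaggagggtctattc
The repeat lay at −53 to −37 from the start, counted as 0. A DR5 with these half-sites was found in 32 of 32851 promoters of this length (0.0974%), and any of the 3 spacings in 0.588%. The other 11 promoters of Aldh1a1, Aldh1a2, Crabp1, Cyp26b1, Rara and Rarg held none of these letters. Rarb was the steadiest of the receptors after Rarg, with a 1.17-fold range over all 4 libraries against 1.10-fold for Rarg and 2.85-fold for Rara.

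The binding proteins were near the limit of detection. Crabp1 (ENSMUSG00000032291, chromosome 9 from 54764748 to 54773110), which carries retinoic acid in the cytoplasm and is linked to its breakdown, had 2 and 4 reads in NSC and 1 and 10 reads in the libraries labelled NSC Bmi1Over. This was 0.0634 and 0.158 CPM against 0.0571 and 0.175 CPM, with exact 95% Clopper-Pearson intervals that overlap in all 4 libraries, such as 0.00767 to 0.229 in NSC replicate 1 and 0.0839 to 0.322 in NSC Bmi1Over replicate 2. No difference was detectable at this depth. Crabp2 (ENSMUSG00000004885, chromosome 3 from 87948666 to 87953376), which delivers retinoic acid to the receptors in the nucleus, had 6 and 5 reads in NSC and 3 and 39 reads in the others. Its value of 0.682 CPM in NSC Bmi1Over replicate 2 (interval 0.485 to 0.933) stood above the 0.171 to 0.198 CPM of the other 3 libraries, while replicate 1 of that group was the lowest of the 4, with an interval (0.0353 to 0.501) that overlapped that of replicate 2. Both genes were left out of the test for low counts. Fitted without a filter, Crabp2 had a log2 fold change of 1.34 (standard error 0.58, adjusted p = 0.157 from edgeR) and Crabp1 of 0.36 (standard error 0.96, adjusted p = 0.873 from edgeR).

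Cyp26b1 (ENSMUSG00000063415, chromosome 6 from 84571414 to 84593908, minus strand), which oxidises and so inactivates retinoic acid, was counted at 0.317 and 0.593 CPM in NSC and at 0.685 and 0.805 CPM in the libraries labelled NSC Bmi1Over. The groups did not overlap, on 10, 15, 12 and 46 reads. The means were 0.455 ± 0.195 and 0.745 ± 0.0845 CPM (SD, n = 2 each), with a log2 fold change of 0.77 (standard error 0.42, adjusted p = 0.293 from edgeR), the largest in size of the 6 tested. Without NSC replicate 1 it was 0.35, and without NSC replicate 2 it was 1.25. Its order over the libraries was that of Syt1 and of the unmapped share given above. The tested genes nearest to its pattern, by the root mean square difference of centred log2 CPM over the 4 libraries, were Slc7a7 (0.0455), Adamts8 (0.0517) and 4933408B17Rik (0.0519).

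**Figure D2:**
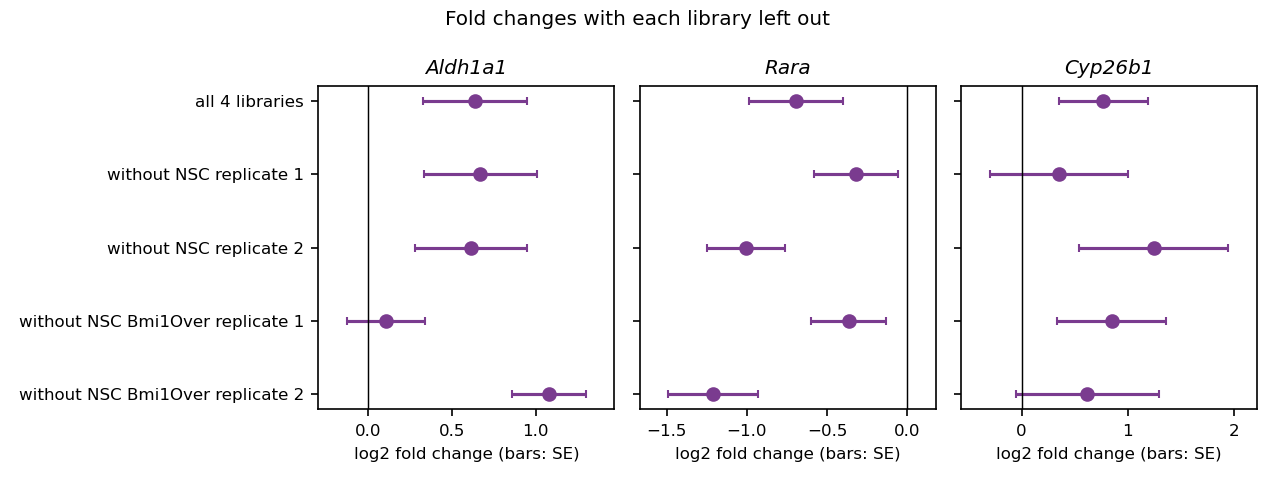
Log2 fold change (horizontal axes, libraries labelled NSC Bmi1Over minus NSC, bars are standard errors) of Aldh1a1, Rara and Cyp26b1 with all 4 libraries and with each library left out. Aldh1a1 moves to 0.11 without NSC Bmi1Over replicate 1, and Rara ranges from −1.21 to −0.32.

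Per length, Rara was the highest of the 9 genes in every library, at 2.25 to 6.42 RPKM. Aldh1a1 followed at 0.978 to 2.11 RPKM and Rarg at 1.15 to 1.27 RPKM, and the ranges of both overlapped. Rarb, at 0.738 to 0.864 RPKM, lay below both in every library, and Aldh1a3, at 0.260 to 0.386 RPKM, below Rarb. Crabp2 (0.130 to 0.516 RPKM), Crabp1 (0.0712 to 0.218 RPKM) and Cyp26b1 (0.0592 to 0.150 RPKM) could not be ordered beyond their spread, and Aldh1a2 came last at 0. Among 21841 protein-coding genes, Rara stood between percentile 56.3 and 70.8 in RPKM, Rarg between 51.5 and 52.2, and Rarb between 48.1 and 49.9. Merged exons of genes with several transcripts are longer than any 1 transcript, which lowers RPKM. For Rarb the length also holds the 34.1% of exon bases shared with Top2b, where reads are ambiguous. Its RPKM and percentile may thus be too low, and its place below Aldh1a1 and Rarg is not sure.

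The other genes of the pathway, 33 listed by role, gave the same count, with 20 tested and 0 called, against 2.15% of all genes. At an unadjusted p under 0.05 there were 5 of the 20, against 24.2% of all genes. DESeq2's Wald test called 2 of the 17 it gave an adjusted p, near its share of 10.8% over all genes. The groups did not overlap for 4 of the 20 with higher values and 9 of the 20 with lower values, against 29.0% and 30.0% of all genes. Of retinoid uptake and storage, 2 of 4 genes were tested, and Rbp4, the plasma retinol carrier, was the highest per length at 0.298 to 0.383 RPKM. Stra6 and Lrat, the retinol receptor and the enzyme that stores retinol as an ester, had at most 3 reads in any library. Of the retinol and retinaldehyde enzymes, 4 of 7 were tested. Rdh11, a retinal reductase, was at 24.4 and 30.4 RPKM in NSC and 34.5 and 40.3 RPKM in the others (log2 fold change 0.45, standard error 0.15, adjusted p = 0.123 from edgeR). Adh5, an alcohol dehydrogenase, was at 25.5 and 22.7 RPKM in NSC and 19.3 and 16.9 RPKM in the others (log2 fold change −0.42, standard error 0.13, adjusted p = 0.112 from edgeR). For both genes the groups did not overlap, and neither was called. Rdh10, which makes the retinaldehyde used by the Aldh1a enzymes, was at 3.74 to 4.93 RPKM.

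Of the partner receptors, 3 of 4 were tested. Rxrb was at 9.29 to 9.73 RPKM and Rxra at 4.64 to 6.16 RPKM, whereas Rxrg had 7, 2, 0 and 7 reads. Fabp5, which carries retinoic acid to Ppard, was at 96.4 to 135 RPKM, and Ppard itself at 2.93 to 4.39 RPKM. All 6 corepressors and coactivators were tested and none was called. The smallest adjusted p among them was that of the coactivator Ncoa1 (log2 fold change −0.50, standard error 0.13, adjusted p = 0.0735 from edgeR). The other two breakdown enzymes were not tested, Cyp26a1 with at most 1 read in any library and Cyp26c1 with 0 reads in all 4.

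Of 9 genes known to respond to retinoic acid, 4 were tested. The nuclear receptor Nr2f1 was the highest per length, at 8.72 to 10.0 RPKM. Its relative Nr2f2 was at 5.86 and 4.51 CPM in NSC and at 12.9 and 6.04 CPM in the others, so that the same library as for Aldh1a1 stood apart (log2 fold change 0.83, standard error 0.34, adjusted p = 0.189 from edgeR). The homeobox gene Meis2 was at 66.0 and 63.9 CPM in NSC and at 36.0 and 48.3 CPM in the others (log2 fold change −0.62, standard error 0.15, adjusted p = 0.0704 from edgeR), the smallest adjusted p of the list. Stra8, Hoxb1 and Cdx1, which retinoic acid induces in germ cells and in the trunk, had 0 reads in all 4 libraries.

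**Figure D3:**
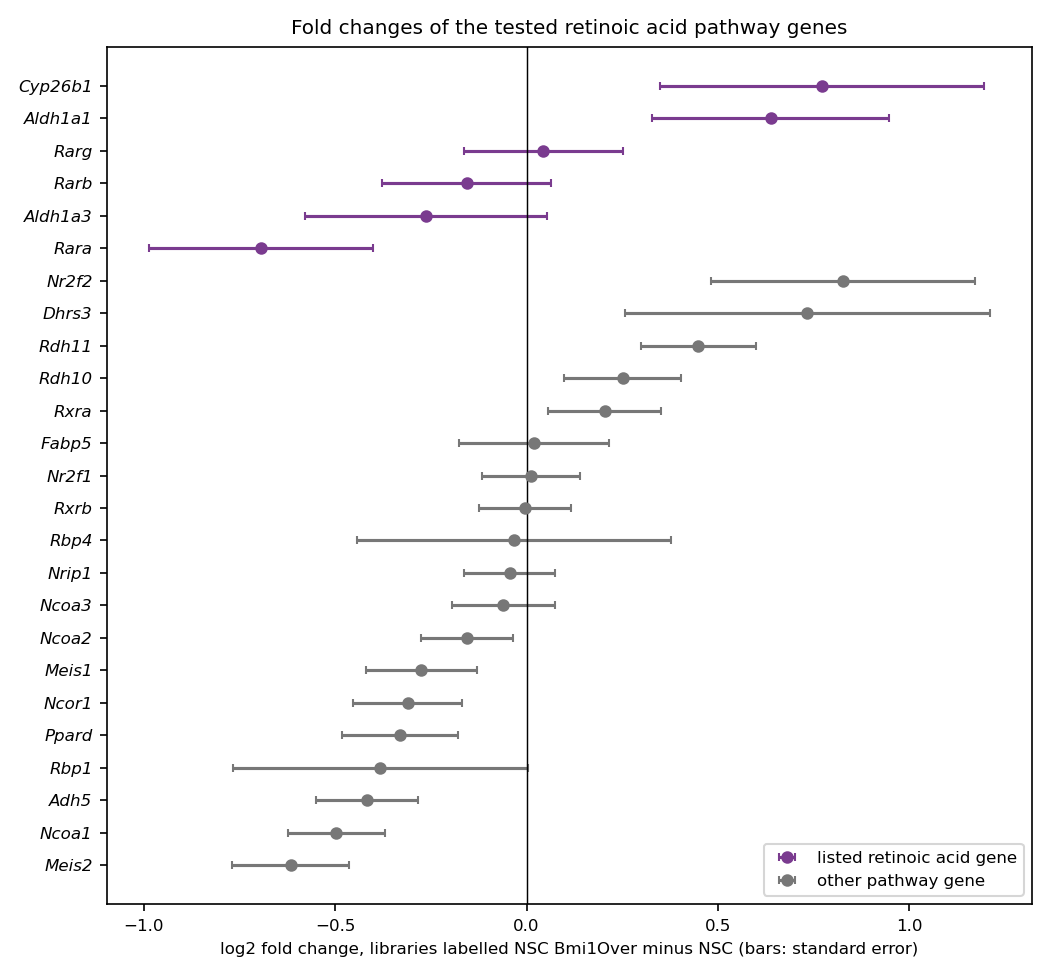
Log2 fold change of the 6 tested retinoic acid genes and 19 of the 20 other tested pathway genes (horizontal axis, libraries labelled NSC Bmi1Over minus NSC, bars are standard errors from the edgeR fit). Cyp26b1 (0.77) and Nr2f2 (0.83) are the highest of their groups and Rara (−0.69) and Meis2 (−0.62) the lowest, and none passes an adjusted p of 0.05.

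For H3K27me3, a gene was taken as marked when a peak called by the authors lay within 5 kb of any of its annotated start sites. Aldh1a2, Crabp1 and Cyp26b1 were marked in the NSC list and the same 3 in the NSC Bmi1Over list. This is 3 of 9 genes, against 8.89% of 22028 protein-coding genes in the NSC list and 4.44% in the NSC Bmi1Over list. Of all genes marked in the NSC list, 47.1% were also marked in the NSC Bmi1Over list. The nearest peak to a start site of Crabp2 was 121300 bp away in the NSC list, and those of Rarg, Rara, Aldh1a3, Aldh1a1 and Rarb were between 174436 and 2596406 bp away. As the lists hold called peaks only, a gene without a peak may still carry the mark below the calling limit.

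The domain over Aldh1a2 was the broadest of the 3. In the NSC list 11 peaks overlapped the gene or its promoter window and covered 38201 bp. The widest spanned 21435 bp from 71211636 to 71233070 on chromosome 9, from −4153 to 17281 bp of the start site, and contained exon 1 and a part of intron 1, enriched 6.81-fold (−log10 q 8.94). By the width of its widest promoter peak, Aldh1a2 was number 71 of the 1958 marked genes, whose median was 764 bp. Its rank in the NSC Bmi1Over list was 172 of 977 marked genes, whose median was 569 bp. In the NSC Bmi1Over list the locus held 31 peaks with a median of 403 bp, against 1617 bp in the NSC list, which covered 21656 bp. Of these bases, 90.3% lay inside NSC peaks, and they made up 51.2% of the NSC bases. The start site itself was inside a peak in the NSC list, whereas in the NSC Bmi1Over list it fell in a gap between a peak ending 287 bp upstream and one beginning 902 bp downstream.

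The promoters of Aldh1a2 and Crabp1 are shown because they lie in these domains (RefSeq, GRCm38.p6, plus strand, 5′ to 3′, 250 bases before to 50 after the start). That of Aldh1a2 (chr9:71215539-71215838) is inside the NSC peak and in the gap of the NSC Bmi1Over list. That of Crabp1 (chr9:54764498-54764797) is inside an NSC peak and also inside a peak of 465 bp in the NSC Bmi1Over list. Neither holds one of the repeats searched, so no letter is in capitals.
Aldh1a2: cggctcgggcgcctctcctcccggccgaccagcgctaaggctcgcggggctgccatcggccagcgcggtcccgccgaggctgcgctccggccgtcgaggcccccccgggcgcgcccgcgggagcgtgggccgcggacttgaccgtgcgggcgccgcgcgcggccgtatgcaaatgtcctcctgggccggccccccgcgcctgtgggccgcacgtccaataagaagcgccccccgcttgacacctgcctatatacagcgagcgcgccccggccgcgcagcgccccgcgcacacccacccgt
Crabp1: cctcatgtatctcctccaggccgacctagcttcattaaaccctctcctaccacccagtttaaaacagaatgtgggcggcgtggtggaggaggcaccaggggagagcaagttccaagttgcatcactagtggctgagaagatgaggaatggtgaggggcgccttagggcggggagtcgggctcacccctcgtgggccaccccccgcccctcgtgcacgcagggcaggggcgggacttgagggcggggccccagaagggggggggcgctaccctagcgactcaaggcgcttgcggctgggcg
The Aldh1a2 window had a GC content of 78.0% and 50 CG dinucleotides, more than 99.1% of all promoters in the table. That of Crabp1 had 65.0% and 17 CG dinucleotides, and that of Cyp26b1, which lies outside the peaks, 62.3% and 9, where the median of all promoters was 52.7% and 7.

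At Crabp1, the NSC list held 7 peaks over the gene and its promoter window. The widest spanned 6410 bp from 54763753 to 54770162 on chromosome 9, enriched 5.91-fold (−log10 q 6.77), and overlapped the start site and exons 1 to 3 of 4. In the NSC Bmi1Over list there were 6 peaks, of which a peak of 465 bp held the start site and one of 2162 bp began 303 bp downstream. Of the 4319 bp covered in the NSC Bmi1Over list, 92.0% lay inside NSC peaks.

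At Cyp26b1 the mark was inside the gene and not at the start of the longest coding transcript. In the NSC list it held 3 of the 5 annotated start sites, and which of them is used was not measured. The NSC list held 3 peaks, the widest of 6252 bp from 84582557 to 84588808 on chromosome 6, enriched 8.04-fold (−log10 q 12.2), the highest of the 3 genes. It began 5100 bp downstream of the start of the longest coding transcript and overlapped exons 2 and 3 of 7 and the start sites of 3 shorter annotated transcripts. In the NSC Bmi1Over list, 3 peaks covered 3478 bp, all inside NSC peaks, and the widest was 2275 bp. None held a start site, and the nearest lay 203 bp from that of a shorter transcript. When only the start of the longest coding transcript was counted, Cyp26b1 stayed marked in the NSC list by a peak 3749 bp away and was not marked in the NSC Bmi1Over list, where the nearest peak was 6431 bp away.

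**Figure D4:**
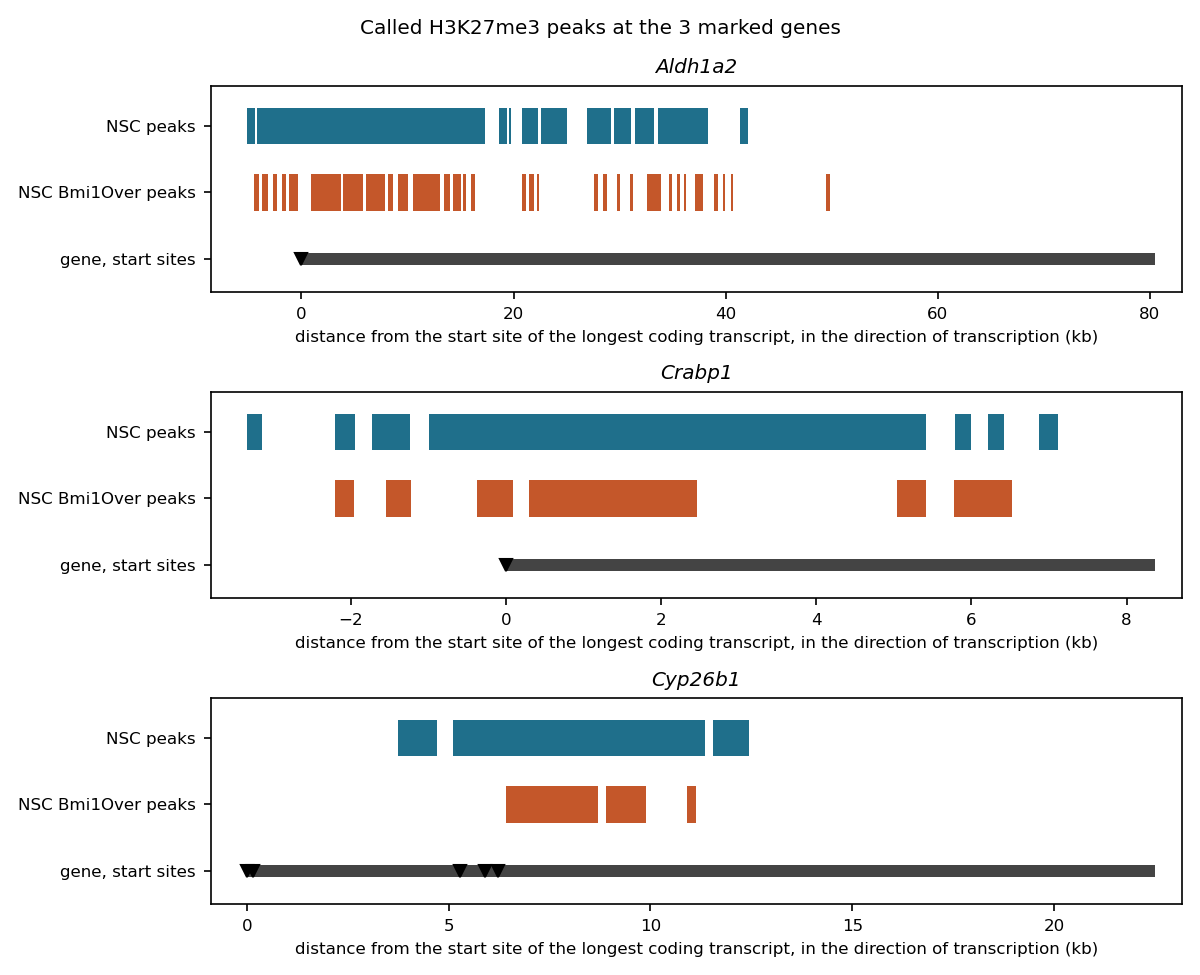
Called H3K27me3 peaks at Aldh1a2, Crabp1 and Cyp26b1 in the NSC list (upper row of each panel) and the NSC Bmi1Over list (middle row), with the gene as a bar and its annotated start sites as triangles (lower row). The horizontal axis is the distance in kb from the start of the longest coding transcript. The widest peak is longer in the NSC list at each gene (21435 against 2829 bp at Aldh1a2), and at Cyp26b1 the peaks lie inside the gene.

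Over the promoter windows of the 9 genes, peaks covered 23774 bp in the NSC list and 13236 bp in the NSC Bmi1Over list, or 55.7% of the former. Over the whole lists this was 41.6%, with 12982 peaks in the NSC list and 6810 in the other. The lists also differ in their smallest fold enrichment, 3.52 in the NSC list and 4.03 in the NSC Bmi1Over list. By the study's methods, the deeper NSC library had more aligned reads than either NSC Bmi1Over library, and the other NSC library had fewer. The methods state that the weaker libraries were discarded, without naming the one kept. Narrower domains and a library of lower depth or enrichment therefore cannot be told apart.

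The marked genes were among the low ones of the set. In the NSC libraries, the median level of the 3 genes marked in the NSC list was 0.0592 and 0.111 RPKM and that of the 6 unmarked genes 0.919 and 0.921 RPKM. In the libraries labelled NSC Bmi1Over, the medians of the same genes, which are those marked in that list, were 0.0712 and 0.150 RPKM against 1.01 and 0.908 RPKM. Over all protein-coding genes the medians in NSC were 0.101 and 0.0991 RPKM for 1950 marked genes and 1.31 and 1.30 RPKM for 19891 unmarked genes. For the 975 genes marked in the NSC Bmi1Over list, the medians in the libraries of that label were 0.0491 and 0.0622 RPKM. Those of the 20866 unmarked genes were 1.18 and 1.23 RPKM. Crabp2 was unmarked in both lists although its level, 0.130 to 0.516 RPKM, could not be ordered against those of Crabp1 and Cyp26b1 beyond their spread. Of the protein-coding genes with 0 reads in all 4 libraries, as Aldh1a2 was, 5.50% were marked in the NSC list and 3.93% in the NSC Bmi1Over list.

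Of the 33 other pathway genes, 10 were marked in the NSC list and 5 in the NSC Bmi1Over list, read against the same 8.89% and 4.44%. The NSC list marked these 5 too, among them Cyp26a1, Hoxb1, Cdx1 and Nr2f2. Those marked in the NSC list alone were Rbp4, Lrat, Dhrs3, Meis2 and Nr2f1. At Cyp26a1, the breakdown enzyme most quickly induced by retinoic acid, the widest NSC peak was 8129 bp, with a fold enrichment of up to 6.09. Nr2f2 had a widest NSC peak of 10954 bp although it was counted in every library. Meis2 and Nr2f1, which were also counted in every library, had NSC peaks of at most 636 and 706 bp.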

How the data were processed

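The data were the reads per gene of 4 RNASeq libraries and the H3K27me3 peak lists of 2 ChIPSeq libraries. RNASeq reads were trimmed (Trim Galore) and mapped to mm10 by STAR, and the authors deposited its raw, unnormalised counts per gene. For ChIPSeq they used Bowtie2 2.3.4 and MACS2 in broad mode, on uniquely mapped reads of the 1 library of each condition that they retained. The deposited lists give for each peak the fold enrichment (a ratio to the background of MACS2) and its p-value and q-value as −log10, and a display score, which was not used. The STAR version and its annotation are not given in the sources used here.

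The unstranded column was tested with edgeR 4.0.16 (R 4.3.3, limma 3.58.1), with TMM scaling and the quasi-likelihood F-test, both of which the study used, group as the only term, and Benjamini-Hochberg adjustment over all 15521 genes tested. Genes were kept by filterByExpr, whereas the study filtered by quality and biotype with NOISeq. Reads not assigned to 1 gene, 27.8% to 34.1% of each library, stayed out. Standard errors were derived from each F statistic and its fold change. CPM rest on the reads of the tested genes and RPKM on merged exons of GENCODE vM21, which matched 50462 of 50686 gene identifiers. Peaks and promoters were analysed in Python 3.11.15, with windows of 5 kb and an overlap of at least 1 bp. Promoter sequences came from RefSeq (GRCm38.p6, the build of mm10). Intervals and limits for a count of 0 (3 reads) cover counting error only. The steps were tested on simulated data. P-values measure the spread between 2 cultures a group, which the study calls biologically independent.

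The genes, the pathway list by role and the marker lists were chosen with earlier results of these data known. The rule for named genes took the 9 genes, pathway genes that were called or the highest per length of their role, and the 3 genes nearest in pattern to the tested gene with the largest change. Other pathway genes were named after their values were seen, and some results on pathway genes are not reported here. Alternatives were DESeq2 1.42.0 (Wald test, size factors), library size alone, other filters, the stranded columns, a block for the replicate number, protein-coding genes alone, thinning to 18112100 reads, each library left out, and for peaks stricter limits, another overlap, a window of 1 kb and a single start site per gene.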

Additional observations from a re-analysis of the deposited data

How the results depend on the processing

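No listed gene was called in any alternative, except Rara without a filter on low counts (1 gene called) and without NSC replicate 2. With each library left out the number was 0 to 1. A fit with 1 library in a group assumes that it varies like the others. Of the other pathway genes, 0 were called in the reported fit, 2 with library size alone, 5 without a filter, 1 after thinning, 2 with DESeq2's Wald test and 0 to 3 with each library left out. Over all genes the count was 334 and became 537 with library size alone, of which 64.4% were higher against 94.3% in the reported fit, 2356 without a filter, 502 after thinning, 1488 with DESeq2's Wald test and 176 to 2546 with each library left out. The reported fit, library size alone and DESeq2 tested 15521 genes, of which DESeq2 gave 13715 an adjusted p. Without a filter 28541 genes were tested, after thinning 14647 and with each library left out 15871 to 16356. Under library size alone the median of all log2 fold changes was −0.17, against −0.01. With the replicate number as a block, 3459 of 15521 genes, 6 of 20 tested pathway genes and 0 of 6 tested listed genes were called. Libraries with the same number share only that number, and their deviations correlated at 0.16 in this design with 2 pairs.

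The sign turned for Rarg with library size alone (−0.11), after thinning (−0.076) and without NSC replicate 1 (−0.030), and for Aldh1a3 without NSC replicate 2 (0.0066). With each library left out, Rarg ranged from −0.0296 to 0.11 and Aldh1a3 from −0.52 to 0.0066. The cause was not tested. Aldh1a1, Rara, Rarb and Cyp26b1 kept their sign in every alternative that gave a value.

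The number of marked genes was 3 in both lists in every alternative, except 2 in the NSC Bmi1Over list with a single start site per gene. The summed peak length in the promoter windows, 23774 bp in the NSC list and 13236 bp in the other, became 6573 and 2774 bp with a window of 1 kb, 21279 and 8897 bp with a fold enrichment of at least 5, 22733 and 11333 bp with a −log10 q of at least 3, 21279 and 8320 bp with peaks of at least 1000 bp, and 17645 and 9758 bp with a single start site, by construction fewer peaks or a smaller window. Depth limits the low genes: Crabp1, Crabp2 and Cyp26b1 rested on 1 to 46 reads in a library. The peak lists may also differ in depth, in a direction that is not known. By the study's methods, the deeper NSC ChIPSeq library had more aligned reads than either NSC Bmi1Over library and the other NSC library fewer.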
